A study of Mus musculus with 18 samples.

Results

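The liver tumours compared here came from 2 kinds of male mice in which the path from gut bacteria to the lipopolysaccharide receptor was interrupted at different points. The 5 Tlr4-mutant tumours came from C3H/HeJ mice, whose Tlr4 carries the P712H change, and the 3 antibiotic tumours came from wild-type (WT) C3H/HeOuJ mice. The antibiotic mice drank ampicillin, neomycin and metronidazole at 1 g/l each and vancomycin at 500 mg/l from week 10 to week 54. The mice of both groups had been given 100 mg/kg of the carcinogen diethylnitrosamine (DEN) at 12 weeks followed from week 13 to week 23 by CCl4, a liver toxin, in 6 injections of 0.5 ml/kg, and the lesions were dissected at 54 weeks. The arrays were chosen by their titles alone, and they are 8 of the 18 in the series. The others are 7 tumours of C3H/HeOuJ mice given DEN and CCl4 without antibiotics (untreated WT tumours) and 3 normal livers of C3H/HeOuJ mice aged 15 weeks. The mutant mice are another substrain and the antibiotic mice carry functional Tlr4, so that substrain, the Tlr4 change and the antibiotics cannot be told apart in a direct comparison. The sources used here do not say whether each tumour is from a different mouse, so that the p-values measure only how far these samples spread, which may be technical.

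Tlr4 sits on macrophages, stellate cells, endothelium and hepatocytes. With its partner Ly96 (MD-2) it responds to lipopolysaccharide that Lbp and Cd14 hand over, and through Myd88 and Ticam1 it switches on NF-kappaB and interferon programmes. The P712H change lies in the part of the receptor inside the cell and leaves it unable to signal. Oral antibiotics act earlier on the same path, by removing bacteria from the gut, and they also remove bacterial products that do not act through Tlr4.

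Signals are log2 GCRMA values of probe sets, and a probe set was analysed when it exceeded log2 4 on at least 3 of the 18 arrays. This left 16663 probe sets and 9053 genes, each gene represented by its probe set of highest mean. Between 14427 and 15136 probe sets exceeded log2 4 on each of the 8 arrays. Albumin (Alb) lay between 14.59 and 14.71 on all 8, and the fetal liver and tumour marker Afp between 11.93 and 13.59 on 7. Antibiotic tumour 30 stood apart, with Afp at 6.63 and a value of -86.8 on the first principal component of the 8 arrays (30.4% of the variance), where the others lay between -8.49 and 36.5. Pairs of mutant tumours correlated at 0.946 to 0.983, pairs of antibiotic tumours at 0.931 to 0.961, and pairs across the groups at 0.926 to 0.974. Tlr4 itself read 3.22, 2.59, 2.52, 2.72 and 2.63 in the mutant tumours and 2.50, 3.16 and 2.58 in the antibiotic tumours, below the filter in both. Its level therefore checks no label, and a coding change need not alter it.

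Few genes separated the groups. Of 9053 genes, 21 (0.232%) passed a limma adjusted p under 0.05, with Benjamini-Hochberg adjustment over all 16663 probe sets: 11 were higher in the mutant tumours (0.122%) and 10 lower (0.11%). In these and the later gene counts Rac1 is taken by its probe set of highest mean, although its other probe set went the other way. At the level of probe sets 35 (0.21%) passed, 19 higher (0.114%) and 16 lower (0.096%). The median difference over all genes was 0.00 on the log2 scale, and 50.5% of genes (51.1% of probe sets) were higher in the mutant tumours. An unadjusted p under 0.05 was reached by 926 genes (10.2%) and 1753 probe sets (10.5%), and the 5 mutant arrays lay wholly above or below the 3 antibiotic arrays for 517 genes (5.71%) and 962 probe sets (5.77%), the 21 passing genes among them. In 14 of the 21 the mutant tumours lay outside all 13 C3H/HeOuJ arrays, normal liver included, a pattern shown by 28 genes (0.309%) and 48 probe sets (0.288%) in all. In 2 of the 21, Sult1e1 and Tbc1d20, the antibiotic tumours lay outside every other tumour, which 66 genes (0.729%) and 143 probe sets (0.858%) did in all.

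The counts rested on the spread estimated over all 18 arrays. A fit of the 8 arrays alone called 1 gene, Rbks, and gave the other 20 a limma adjusted p of 0.0598 to 0.37. A fit of the 15 tumour arrays, without normal liver, called 15 genes and lost Gjb1, Ptpn3, Vps41, Hccs, Fancl and Plk2 (limma adjusted p = 0.0888, 0.099, 0.0919, 0.0674, 0.0569 and 0.0998). Without antibiotic tumour 28 the limma fit called 69 genes (19 higher, 50 lower), and without mutant tumour 25 it called 13. Without untreated WT tumours 17 and 19, a setting chosen after seeing the data, it called 32. Without antibiotic tumour 30 it called 18 genes, 15 of them among the 21.

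**Figure D1:**
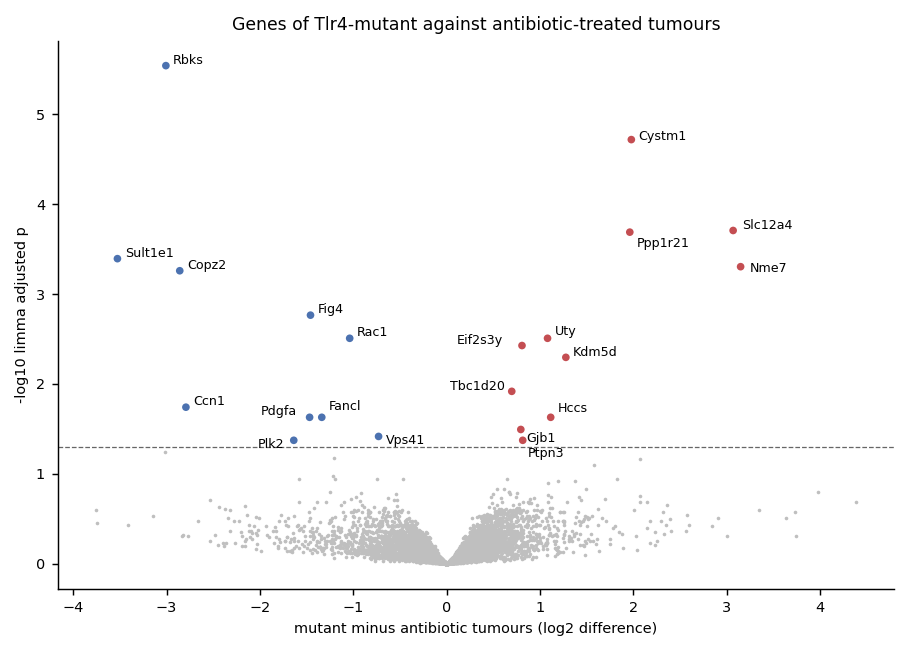
Each point is 1 of 9053 genes. The x axis gives the log2 difference of mutant minus antibiotic tumours and the y axis -log10 of the limma adjusted p, with the dashed line at 0.05. The 11 red points and 10 blue points are the genes higher and lower in the mutant tumours, and Rbks, Cystm1 and Slc12a4 reach the smallest adjusted p. Rac1 is a blue point by its probe set of highest mean, and its other probe set went the other way.

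The largest rise was that of Nme7, a member of the nucleoside diphosphate kinase family found at the centrosome. The mutant tumours read 8.17, 8.82, 8.52, 7.61 and 8.76, and the antibiotic tumours 4.48, 5.39 and 5.81. All 5 mutant tumours were far above all 3 antibiotic tumours, and also above the untreated WT tumours (4.81 to 6.26) and normal livers (5.22 to 5.32). The log2 difference between mutant and antibiotic tumours was 3.15 ± 0.37 (SE; limma adjusted p = 0.000496), an 8.87-fold higher signal.

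Slc12a4, a potassium-chloride cotransporter, was seen in the mutant tumours only. It read 4.97, 4.80, 6.41, 6.49 and 5.82 there, against 2.68, 2.30 and 2.91 in the antibiotic tumours, 2.09 to 2.68 in the untreated WT tumours and 2.29 to 2.44 in normal liver. All C3H/HeOuJ arrays were under log2 4, the level treated here as background, so that the signal was at least 3.24-fold higher in the mutant tumours (limma adjusted p = 0.000196). Cystm1, a small membrane protein, read 6.79, 7.14, 6.86, 6.68 and 6.53 in the mutant and 5.15, 4.38 and 4.94 in the antibiotic tumours. The groups did not overlap, and the log2 difference was 1.98 ± 0.17 (SE; limma adjusted p = 1.91e-05). Ppp1r21, a protein of early endosomes, read 9.45, 9.09, 8.75, 9.20 and 9.53 against 7.05, 6.88 and 7.80, a log2 difference of 1.96 ± 0.21 (SE; limma adjusted p = 0.000205). Its lowest mutant tumour was thus well above its highest antibiotic tumour.

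The smaller rises included Hccs, the mitochondrial enzyme that attaches haem to cytochrome c. Hccs read 8.97 to 9.10 in the 5 mutant tumours and 8.33, 8.28 and 7.20 in the antibiotic tumours, a log2 difference of 1.11 ± 0.20 (SE; limma adjusted p = 0.0235). The mutant tumours were tightly grouped, and antibiotic tumour 30 was the lowest of all. Without it the log2 difference of Hccs was 0.75 and still passed (limma adjusted p = 0.0306), whereas without mutant tumours 23, 24, 25 or 26 in turn the adjusted p was 0.0578, 0.0553, 0.0665 and 0.0584. The dimmer Hccs probe set 1420889_at gave a log2 difference of 0.83 without overlap and did not pass (limma adjusted p = 0.164).

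All 3 measured genes of the Y chromosome list rose in the mutant tumours (0.122% of all genes), with non-overlapping groups in each (5.71% of all genes). Kdm5d, a histone demethylase, read 8.16, 8.26, 8.39, 8.34 and 7.99 in the mutant and 6.89, 6.59 and 7.37 in the antibiotic tumours (log2 difference 1.28 ± 0.19, SE; limma adjusted p = 0.00506). Uty, the Y copy of the demethylase gene Kdm6a, read 7.79 to 8.16 against 6.77 to 7.07 (1.08 ± 0.15, SE; limma adjusted p = 0.00311). Eif2s3y, the Y copy of a translation initiation factor subunit, read 11.15 to 11.35 against 10.26 to 10.54 (0.81 ± 0.12, SE; limma adjusted p = 0.00374). The mutant tumours were also above the untreated WT tumours and normal livers for each of the 3. The Uty probe set 1422247_a_at rose by 1.35 on the log2 scale (limma adjusted p = 0.00934), and 1457582_at, at background in the antibiotic tumours, was at least 1.36-fold higher (limma adjusted p = 0.0321). The list has 6 genes, of which 5 are on the array.

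Among the falls, Rbks had the smallest p. It encodes ribokinase, which phosphorylates ribose. Its main probe set read 2.82, 2.40, 2.85, 3.15 and 3.16 in the mutant tumours and 5.64, 5.80 and 6.21 in the antibiotic tumours. Every mutant value was under log2 4, whereas the untreated WT tumours read 4.77 to 5.80 and normal livers 6.25 to 6.40. Rbks signal was thus at least 3.69-fold lower in the mutant tumours (limma adjusted p = 2.87e-06), and its probe set 1424840_at at least 1.34-fold lower (limma adjusted p = 0.00374).

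Copz2, a subunit of the coatomer that coats Golgi vesicles, read 2.71, 4.41, 3.26, 3.86 and 3.58 in the mutant and 6.12, 6.51 and 6.64 in the antibiotic tumours. Only mutant tumour 24 exceeded log2 4. The log2 difference of Copz2 was -2.86 ± 0.34 (SE; limma adjusted p = 0.000551). Fig4, a phosphoinositide phosphatase of endosomes, lay between 2.88 and 3.35 in the mutant and between 4.32 and 4.68 in the antibiotic tumours. All mutant values of Fig4 were at background, which makes it at least 1.46-fold lower (limma adjusted p = 0.00172). Fancl, the ubiquitin ligase of the Fanconi anaemia DNA repair complex, read 6.67 to 7.45 against 8.01 to 8.57 (log2 difference -1.34 ± 0.24, SE; limma adjusted p = 0.0235). Vps41, a subunit of the tether that fuses vesicles with lysosomes, read 7.71 to 8.09 against 8.54 to 8.77 (-0.73 ± 0.14, SE; limma adjusted p = 0.0384). For all 4 genes the mutant tumours lay below every C3H/HeOuJ array.

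Rac1, a small GTPase that directs the actin cytoskeleton, gave opposite readings on its 2 probe sets. On 1423734_at the mutant tumours read 9.70 to 10.03 and the antibiotic tumours 10.54 to 11.18, a log2 difference of -1.04 ± 0.15 (SE; limma adjusted p = 0.00311). On 1451086_s_at the group means were 10.09 in the mutant and 9.51 in the antibiotic tumours, a log2 difference of 0.58 with an SE of 0.12, short of the threshold (limma adjusted p = 0.0665). The arrays were apart on both probe sets, in opposite directions, so no direction is given for Rac1 as a gene. With the mean of both probe sets the log2 difference of Rac1 was -0.23 and did not pass (limma adjusted p = 0.476).

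Sult1e1, the sulfotransferase that inactivates oestrogens, was higher in the antibiotic tumours than in every other tumour. It read 4.79, 6.28 and 7.41 in antibiotic tumours 28, 29 and 30, and 2.83, 2.45, 2.34, 2.55 and 2.99 in the mutant tumours. The untreated WT tumours (2.17 to 3.07) and normal livers (2.40 to 2.60) were at the same low level as the mutant tumours. Against background, Sult1e1 was at least 4.47-fold lower in the mutant than in the antibiotic tumours (limma adjusted p = 0.000404), and it passed without antibiotic tumour 30, the highest (limma adjusted p = 0.000774). Sult1e1 was the only member to pass among 43 measured conjugation enzymes and among 19 female-biased liver genes. Tbc1d20, an activator of Rab GTPases, was lowest in the antibiotic tumours, at 6.79, 6.92 and 6.95 against 7.69, 7.29, 7.65, 7.60 and 7.69 in the mutant tumours. Its log2 difference was 0.70 ± 0.11 (SE; limma adjusted p = 0.0121), and the normal livers (7.53 to 7.59) lay within the mutant range. The dimmer Tbc1d20 probe set 1452140_at gave 0.40 ± 0.20 (SE; limma adjusted p = 0.507), and with the mean of both probe sets Tbc1d20 did not pass (limma adjusted p = 0.134).

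In the other 5 genes, on the probe set of highest mean, the mutant tumours were not outside all C3H/HeOuJ arrays. The antibiotic tumours were there not outside all other tumours. Against tumours alone, without normal liver, the mutant tumours were outside all others for Ccn1, Pdgfa and Gjb1. Ccn1, a secreted matrix protein and immediate early gene, read 4.16, 5.49, 4.34, 4.18 and 5.06 in the mutant and 6.46, 7.53 and 8.33 in the antibiotic tumours, and 4.94 to 5.89 in normal liver. The mutant tumours were the lower group, at a log2 difference of -2.79 ± 0.48 (SE; limma adjusted p = 0.0182). On the Ccn1 probe set 1438133_a_at they were all at background, below every C3H/HeOuJ array. The signal there was at least 2.93-fold lower than in the antibiotic tumours (limma adjusted p = 0.0376). The Ccn1 probe sets 1442340_x_at and 1457823_at did not pass (limma adjusted p = 0.354 and 0.403). Pdgfa, a growth factor for stellate cells, read 6.71, 6.77, 6.96, 7.09 and 7.07 against 8.40, 9.11 and 7.66, a log2 difference of -1.47 ± 0.26 (SE; limma adjusted p = 0.0235). The untreated WT tumours read 8.21 to 9.03 for Pdgfa, above every mutant tumour, and normal livers 7.0 to 7.65. On the dimmer Pdgfa probe set 1418711_at the mutant tumours lay below every C3H/HeOuJ array (log2 difference -1.69, limma adjusted p = 0.0235). Plk2, a polo-like kinase among the targets of p53, read 4.58 to 5.58 against 5.78, 7.69 and 6.34 (-1.64 ± 0.32, SE; limma adjusted p = 0.0424). Gjb1, the main gap junction protein of hepatocytes, read 10.26 to 10.70 against 10.06, 9.49 and 9.59 (0.79 ± 0.15, SE; limma adjusted p = 0.0321). On the dimmer Gjb1 probe set 1448766_at the groups overlapped, and the log2 difference of 0.64 did not pass (limma adjusted p = 0.26). Ptpn3, a tyrosine phosphatase, read 9.08 to 9.72 against 8.58, 8.42 and 8.44 (0.81 ± 0.16, SE; limma adjusted p = 0.0424).

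Averaging the probe sets of a gene ended the calls of Ccn1 (limma adjusted p = 0.191) and Gjb1 (limma adjusted p = 0.0827). These 5 genes, with Hccs, Fancl and Vps41, were the calls that a single array could end. Leaving out each of the 8 arrays in turn, the limma adjusted p reached 0.148 for Gjb1, 0.147 for Ptpn3 and Vps41 and 0.111 for Ccn1, each without antibiotic tumour 30. It reached 0.122 for Plk2 and Pdgfa without antibiotic tumour 29, and 0.0928 for Fancl without antibiotic tumour 30. For Plk2 the log2 difference without antibiotic tumour 29 was -1.09. Ccn1 was also lost without mutant tumours 23, 25 and 26 and antibiotic tumour 29, Pdgfa without mutant tumours 23, 24 and 25, and Fancl without mutant tumours 24, 25 and 26 and antibiotic tumour 28. Gjb1 was lost as well without mutant tumours 23, 25 and 27 and antibiotic tumour 29, Ptpn3 without mutant tumours 23, 24, 25 and 27 and antibiotic tumour 29, Plk2 without mutant tumours 23, 25, 26 and 27 and antibiotic tumour 30, and Vps41 without any mutant tumour or antibiotic tumour 29. The other 13 genes passed in each of these 8 fits.

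**Figure D2:**
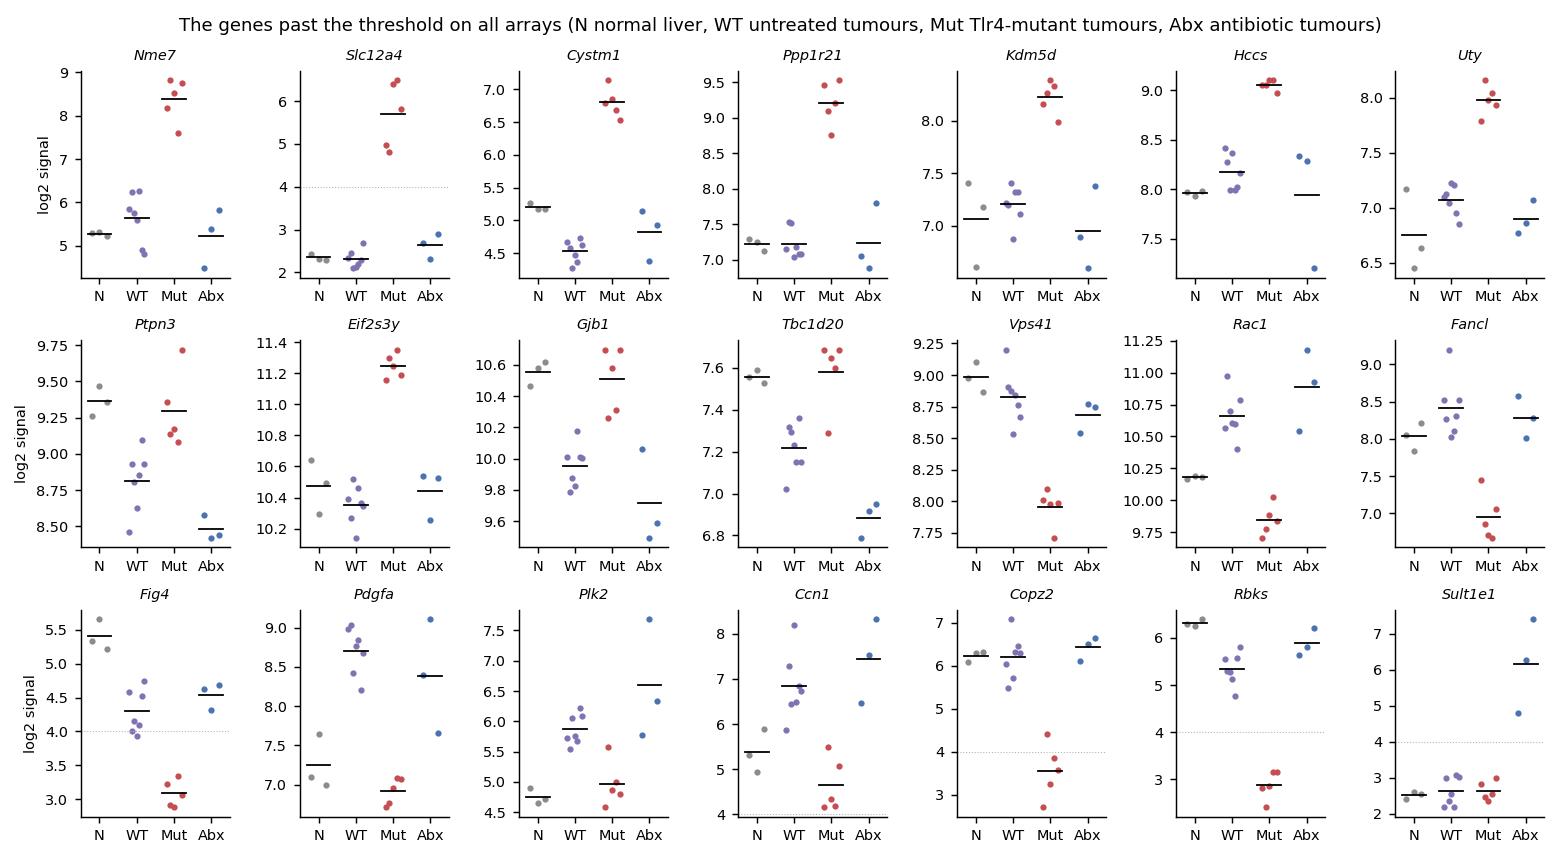
Log2 signal of the 21 genes that passed, on all 18 arrays. Each point is 1 array, bars are group means, and the dotted line marks log2 4 where the axis reaches it; each panel has its own y axis, which does not start at 0. Nme7, Slc12a4, Cystm1 and Ppp1r21 are high in the 5 mutant tumours, Rbks and Copz2 are low in them, and Sult1e1 is high in the 3 antibiotic tumours.

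Both groups were also set against the untreated WT tumours. The mutant-minus-WT and antibiotic-minus-WT differences share the 7 WT arrays and are therefore only set side by side. For Nme7 the log2 differences were 2.75 ± 0.29 and -0.40 ± 0.35 (SE), with limma adjusted p = 0.000117 and 0.571, and for Cystm1 2.27 ± 0.14 and 0.29 ± 0.16 (limma adjusted p = 1.65e-07 and 0.366). For Ppp1r21 they were 1.98 ± 0.17 and 0.02 ± 0.20 (limma adjusted p = 7.37e-06 and 0.97). Of the 21 genes, 16 passed against untreated WT tumours in the mutant group alone, by a limma adjusted p under 0.05, and 1, Sult1e1, in the antibiotic group alone. In 4, Tbc1d20, Plk2, Gjb1 and Ptpn3, neither group passed, with limma adjusted p = 0.0935, 0.115, 0.0574 and 0.0998 for the mutant and 0.141, 0.229, 0.391 and 0.262 for the antibiotic group. For Sult1e1 the limma adjusted p was 0.987 for the mutant and 0.000868 for the antibiotic group. All untreated WT tumours were under log2 4 for Sult1e1, so that the bound of at least 4.47-fold applies to them as well. Against untreated WT tumours, 28 genes (0.309%) and 65 probe sets (0.39%) passed for the mutant group, and 17 genes (0.188%) and 92 probe sets (0.552%) for the antibiotic group.

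**Figure D3:**
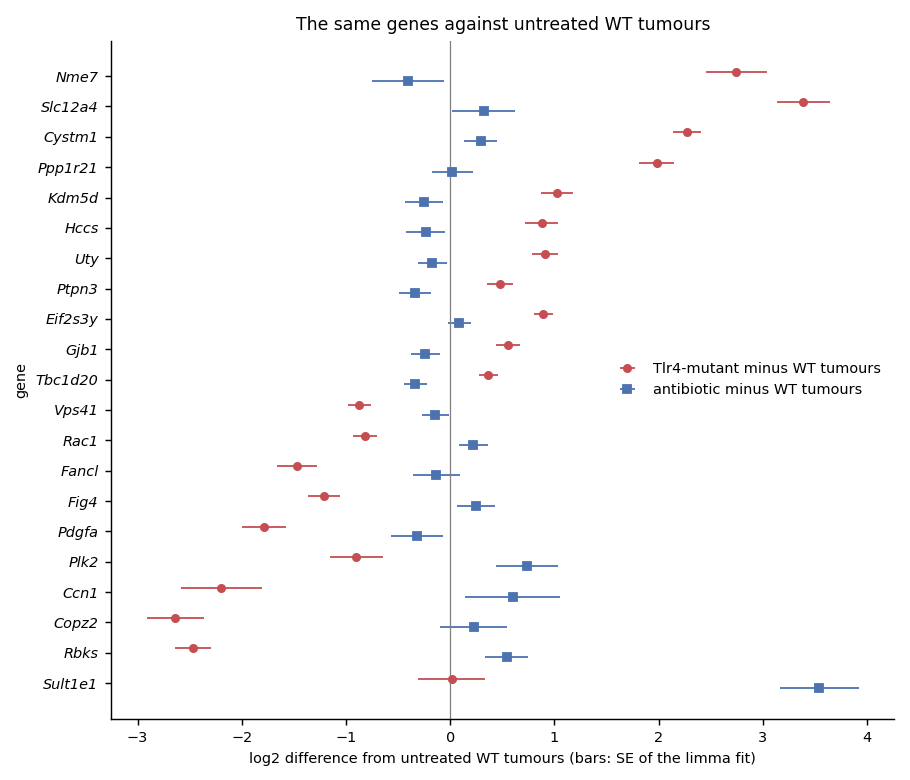
Log2 difference of mutant (red circles) and antibiotic (blue squares) tumours from the 7 untreated WT tumours for the 21 genes, with the SE of the limma fit as bars. Nme7 lies at 2.75 for the mutant and -0.40 for the antibiotic tumours. Slc12a4, Rbks, Fig4 and Sult1e1 each have a group at background, where the size of a difference is not exact.

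Further probe sets passed without their gene being counted. Apob encodes the structural protein of very low density lipoprotein. Its probe set 1457554_at read 10.09, 9.97, 10.11, 9.09 and 9.48 in the mutant and 7.96, 7.71 and 8.06 in the antibiotic tumours (log2 difference 1.84 ± 0.36, SE; limma adjusted p = 0.0425). The antibiotic tumours were below every other tumour there, but on the brighter Apob probe set 1455593_at the log2 difference was 0.24 (limma adjusted p = 0.488). For Tagln2, an actin-binding protein, 1426529_a_at fell by 1.56 on the log2 scale (limma adjusted p = 0.0101), while the brighter 1439407_x_at had a log2 difference of -0.55 (limma adjusted p = 0.262). Bnip2, a partner of Bcl2, fell by 0.71 on 1422491_a_at (limma adjusted p = 0.0284), with -0.39 on its brightest probe set. Tspan33, a tetraspanin, rose by 1.18 on 1451608_a_at (limma adjusted p = 0.0235), and its brightest probe set gave 1.82 with an adjusted p of 0.115. Among probe sets for which the annotation gives no single symbol, 1451632_a_at was at least 7.32-fold higher in the mutant tumours (5.29 to 9.27 against 2.97 to 3.17; limma adjusted p = 0.0132). The others, 1457945_at, 1416226_at and 1452077_at, rose by 1.68, 1.58 and 1.07 on the log2 scale (limma adjusted p = 0.0079, 0.000551 and 0.00374).

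The genes of lipopolysaccharide sensing were read first among the pathways, since both groups interrupt that path. Over all genes, the shares against which list counts can be read were 50.5% higher in the mutant tumours, 10.2% at an unadjusted p under 0.05 and 5.71% without overlap. Of 19 measured members of the list (30 listed), 0 passed by limma, 2 had an unadjusted p under 0.05, 16 were higher in the mutant tumours, and the median log2 difference was 0.26, against 0.00 over all genes (0.16 without antibiotic tumour 28 and 0.44 without antibiotic tumour 29). Cd14, which passes lipopolysaccharide to the receptor, read 9.52, 10.22, 8.52, 8.99 and 9.13 in the mutant and 7.07, 10.77 and 7.50 in the antibiotic tumours, with antibiotic tumour 29 highest and the other 2 lowest. Its log2 difference was 0.83 ± 0.73 (SE; limma adjusted p = 0.729). Lbp differed by 0.65 ± 0.74 (limma adjusted p = 0.802), with values from 7.69 to 10.93 and from 7.29 to 10.28. Ly96 differed by 0.43 ± 0.40 (limma adjusted p = 0.744) and by -0.04 without antibiotic tumour 30. Tlr1, a partner of Tlr2 in sensing bacterial lipopeptides, had the largest difference in the list, 2.33 ± 1.07 (limma adjusted p = 0.467). It read 5.52 to 9.77 in the mutant tumours and 7.90, 6.81 and 2.48 in the antibiotic tumours, and without antibiotic tumour 30 the difference was 0.70.

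Targets of NF-kappaB showed no common shift. Of 15 measured members 0 passed by limma, 1 had an unadjusted p under 0.05, and 8 were higher in the mutant tumours (median log2 difference 0.11, and -0.09 without antibiotic tumour 28). Cxcl1, a chemokine that attracts neutrophils, read 12.22, 11.16, 10.54, 11.14 and 11.18 in the mutant and 10.23, 10.78 and 9.69 in the antibiotic tumours, so that the groups overlapped through mutant tumour 25 and antibiotic tumour 29 (log2 difference 1.02 ± 0.37, SE; limma adjusted p = 0.339). Of 27 acute phase proteins 25 were higher in the mutant tumours, by a median of 0.24 (0.14 without mutant tumour 23 and 0.52 without antibiotic tumour 29), and 0 passed by limma (3 at an unadjusted p under 0.05). The mean log2 value of this list, after subtracting each gene's mean over 18 arrays, differed among the mutant tumours. It was 1.37, 0.05, -0.16, 0.01 and 0.93 in mutant tumours 23 to 27 and -0.39, 0.61 and -0.18 in the antibiotic tumours. Only mutant tumours 23 and 27 were thus above all antibiotic tumours. Lcn2, which withholds iron from bacteria, had the largest difference there, 1.26 ± 0.72 (SE; limma adjusted p = 0.573), and Mt2, a metallothionein, 1.18 ± 0.88 (limma adjusted p = 0.669).

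In the interferon list the members of largest difference were lower in the mutant tumours. Ifit3, an antiviral protein, read 7.25, 7.45, 6.99, 6.91 and 6.98 in the mutant and 7.59, 9.11 and 9.41 in the antibiotic tumours. The groups were apart, but antibiotic tumour 28 was close to the mutant tumours. The log2 difference of Ifit3 was -1.59 ± 0.37 (SE; limma adjusted p = 0.115), and without antibiotic tumour 28 it was -2.14 and passed (limma adjusted p = 0.00725). Leaving out the nearest array widens the difference, so that this pass is no separate support. Gbp2, an interferon-induced GTPase, followed the same arrays with 3.06, 7.12 and 7.26 in antibiotic tumours 28, 29 and 30, and 6.41 in mutant tumour 24 against 3.15 to 3.53 in the other mutant tumours. Over the 32 measured members 0 passed by limma (6 at an unadjusted p under 0.05), 14 were higher in the mutant tumours, and the median log2 difference was -0.11. That median was 0.32 without antibiotic tumour 29 and -0.26 without antibiotic tumour 30.

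Growth factors were examined because epiregulin, a ligand of the EGF receptor, has been placed downstream of Tlr4 in this tumour model. Ereg, the epiregulin gene, was below the filter, with 2.32 to 2.92 in the mutant and 2.21 to 3.87 in the antibiotic tumours. Hbegf, another EGF receptor ligand, read 7.52, 7.48, 7.23, 7.64 and 7.65 in the mutant and 3.79, 7.07 and 5.42 in the antibiotic tumours. The mutant tumours were above all others, also above the untreated WT tumours (4.40 to 5.90), and antibiotic tumour 29 came close to them. The log2 difference of Hbegf was 2.08 ± 0.52 (SE) and did not pass (limma adjusted p = 0.176), but it was 2.90 and passed without antibiotic tumour 29 (limma adjusted p = 0.00941). Since that array was the nearest to the mutant tumours, this pass is no separate support. The other Hbegf probe set, 1418349_at, gave 1.91 ± 0.42 (SE; limma adjusted p = 0.0995). Of the 15 measured genes in the list only Pdgfa passed, and 5 were higher in the mutant tumours (median log2 difference -0.45, and -0.18 without antibiotic tumour 29).

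Ccn1 was likewise the only member to pass among 25 immediate early genes, of which 8 were higher in the mutant tumours (median log2 difference -0.56, and -0.07 without antibiotic tumour 29). The mean level of the list, its mean log2 value after subtracting each gene's mean over 18 arrays, lay between -0.35 and 0.29 in the mutant tumours and at -0.16, 1.18 and 0.14 in antibiotic tumours 28, 29 and 30. Ier3, an early response gene, showed the same single high array, with 11.53 in antibiotic tumour 29 against 7.76 and 8.08 in the other 2 and 4.68 to 8.57 in the mutant tumours. Among hypoxia genes, Adm (adrenomedullin) read 9.26 in antibiotic tumour 29 and 2.84 to 3.33 in the other 7 tumours, and Hk2 (hexokinase 2) 7.33 against 2.57 to 3.75. Of 28 hypoxia and glycolysis genes 0 passed by limma (2 at an unadjusted p under 0.05).

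The largest difference of any gene in the lists was that of Igha, the constant region of immunoglobulin A, the antibody class of mucosal surfaces. Igha read 9.26, 11.19, 9.04, 8.37 and 10.96 in the mutant tumours and 5.60, 5.18 and 5.34 in the antibiotic tumours. The groups were far apart, while the untreated WT tumours spread from 2.87 to 9.73 and normal livers from 3.95 to 5.31. The log2 difference between mutant and antibiotic tumours was 4.39 ± 1.18 (SE), a 21.0-fold higher signal that did not pass (limma adjusted p = 0.207). Without untreated WT tumours 17 and 19, a setting chosen after seeing the data, it passed (limma adjusted p = 0.0108). These arrays enter only through the estimate of the spread, with Igha at 6.03 and 2.87, so that this pass is no separate support. The other Igha probe sets gave 4.66 and 3.64 (limma adjusted p = 0.19 and 0.124).

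Jchain, the chain that joins IgA into dimers, read 6.77, 8.55, 6.27, 6.74 and 8.48 against 4.74, 4.74 and 3.89, again without overlap (log2 difference 2.90 ± 0.99, SE; limma adjusted p = 0.312). Mutant tumours 24 and 27 were the highest for both Igha and Jchain. Of 22 listed markers of B and plasma cells 5 were measured, 3 of them higher in the mutant tumours, and the mean level of the 5 was -0.01 to 1.14 in the mutant and -0.67 to -0.22 in the antibiotic tumours. Ighm, the chain of IgM, had a log2 difference of -1.13 ± 1.09 and the plasma cell marker Sdc1 of -0.21 ± 0.14 (SE; limma adjusted p = 0.755 and 0.633). Cd79a, Ms4a1, Pax5, Mzb1 and Tnfrsf17 were below the filter. In bulk tissue, fewer cells of a type and less RNA per cell cannot be told apart.

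S100a8 and S100a9, which together form the neutrophil protein calprotectin, did not pass. S100a8 read 8.45, 6.38, 6.36, 6.93 and 8.10 in the mutant and 3.36, 6.0 and 5.20 in the antibiotic tumours, without overlap (log2 difference 2.39 ± 0.82, SE; limma adjusted p = 0.315). S100a9 overlapped slightly, at 5.56 to 7.90 against 3.33, 5.60 and 4.06 (2.18 ± 0.78, SE; limma adjusted p = 0.339). Only these genes and Lcn2, 3 of 16 neutrophil markers, were measured, with Mpo, Elane, Ltf and Csf3r below the filter. Hamp2, a hepcidin gene, had the largest difference in the other direction, at 8.56, 7.72, 6.14, 7.07 and 9.03 in the mutant and 12.07, 10.38 and 11.89 in the antibiotic tumours. The groups did not overlap (log2 difference -3.74 ± 1.39, SE; limma adjusted p = 0.357). Normal livers read 10.88 to 11.85, with antibiotic tumours 28 and 30 just above that range and antibiotic tumour 29 below it. Of 12 measured genes of antimicrobial and mucosal defence 0 passed by limma, 5 had an unadjusted p under 0.05, 10 were higher in the mutant tumours and 4 were without overlap, against 5.71% of all genes.

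**Figure D4:**
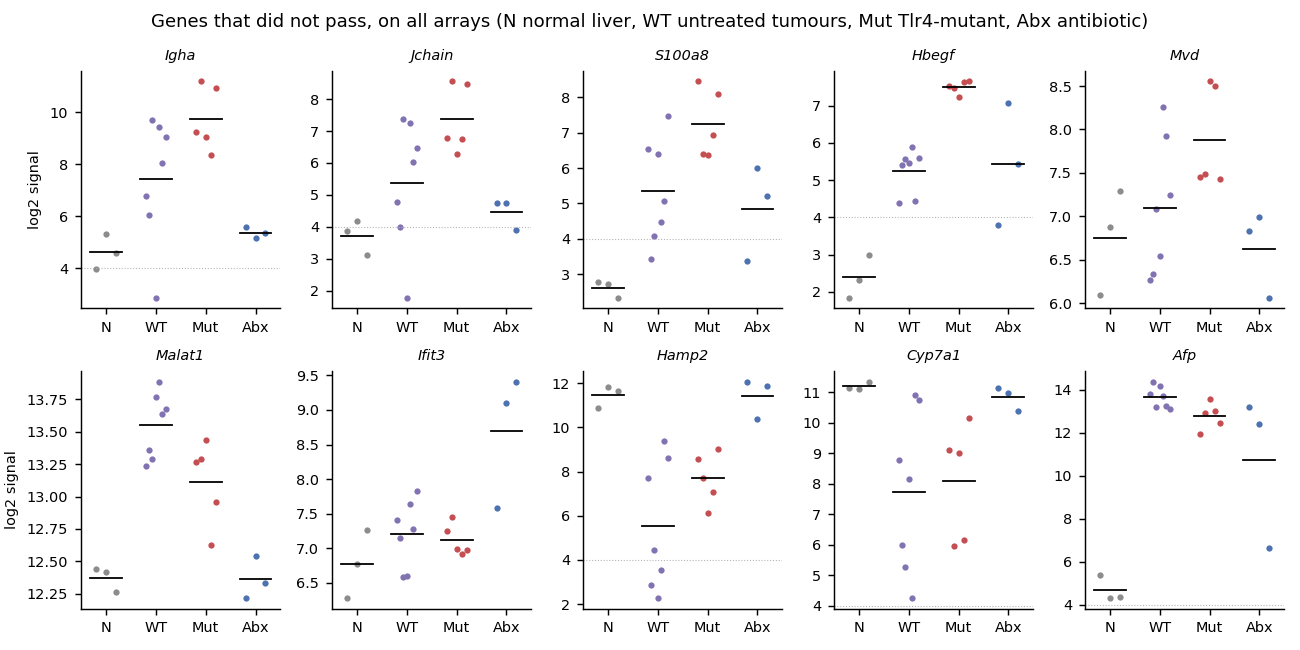
Log2 signal of 10 genes that did not pass, on all 18 arrays, with group means as bars and log2 4 dotted. Igha and Jchain are higher in all 5 mutant than in all 3 antibiotic tumours but spread widely in the untreated WT tumours, and the Afp mean of the antibiotic group is set by 1 array at 6.63.

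Among lists of at least 10 measured genes, cholesterol synthesis was the only one with all members on the same side. All 20 measured genes were higher in the mutant tumours, with a median log2 difference of 0.51, where 50.5% of all genes were higher with a median of 0.00. None passed by limma, 8 had an unadjusted p under 0.05 (10.2% of all genes), and 6 were without overlap (5.71% of all genes). Mvd, which forms isopentenyl pyrophosphate, read 7.45, 7.48, 8.55, 8.51 and 7.43 in the mutant and 6.83, 6.99 and 6.06 in the antibiotic tumours (log2 difference 1.26 ± 0.46, SE; limma adjusted p = 0.342). Lss, which closes the lanosterol ring, read 10.74 to 11.55 against 11.04, 9.76 and 9.25 (1.15 ± 0.45, SE; limma adjusted p = 0.381). The other members ranged down to 0.09 for Pmvk, and Hmgcs1 (0.50) and Sqle (0.51), named after their values were seen, were near the median. The mean level of the list was 0.13 to 0.53 in the mutant tumours and 0.13, -0.30 and -0.54 in antibiotic tumours 28, 29 and 30. Antibiotic tumour 28 thus matched the lowest mutant tumour. Without antibiotic tumour 30 the count was 18 of 20 and the median 0.35.

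The lists of hepatocyte functions leaned in different directions. Higher in the mutant tumours were 22 of 32 genes of hepatocyte identity and secreted proteins and 30 of 42 of complement and coagulation. So were 16 of 26 periportal genes and 20 of 31 PPARalpha targets, where 50.5% of all genes were higher. The median log2 differences of these lists were small, at 0.14, 0.13, 0.13 and 0.04. With each array left out in turn, the periportal median ranged from 0.02 to 0.24 and the PPARalpha median from -0.03 to 0.10. Most members were lower among the lists that follow. Of 26 Wnt targets and pericentral genes 22 were lower (median log2 difference -0.84, and -0.54 without mutant tumour 26), and 0 passed by limma (1 at an unadjusted p under 0.05). Their mean level was 0.38, -1.22, -0.40, -1.67 and 0.16 in mutant tumours 23 to 27 and 0.37, 0.12 and 0.24 in the antibiotic tumours. Mutant tumour 23 was thus above all antibiotic tumours and mutant tumour 27 within their range. Cyp7a1, which carries out the rate-limiting step from cholesterol to bile acids, read 9.12, 5.96, 9.0, 6.15 and 10.15 in the mutant and 11.14, 10.98 and 10.40 in the antibiotic tumours. The mutant tumours were all lower but differed widely among themselves (log2 difference -2.77 ± 1.35, SE; limma adjusted p = 0.495). Nr1i3, the nuclear receptor CAR, was lowest in the same mutant tumours 24 and 26 (4.19 and 4.11, against 6.47 to 8.50 in the other 3 and 7.78 to 8.43 in the antibiotic tumours). Nr0b2, the repressor SHP that restrains Cyp7a1, read 8.96, 8.68, 7.73, 8.37 and 8.12 against 7.57, 4.63 and 5.96, without overlap (2.32 ± 0.71, SE; limma adjusted p = 0.263).

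Of 43 conjugation enzymes 31 were lower in the mutant tumours (median log2 difference -0.25), where 50.5% of all genes were higher, and 7 were without overlap (5.71% of all genes). The median of this list was -0.44 without antibiotic tumour 29 and -0.15 without mutant tumour 26. Of 33 NRF2 targets 28 were lower (median -0.31, and -0.20 without mutant tumour 26), 0 passed by limma and 5 had an unadjusted p under 0.05. Gsta2, a glutathione transferase in both lists, read 4.65 in mutant tumour 26 and 9.22 to 10.76 in the other mutant tumours, against 10.97, 10.70 and 12.54. Nqo1, the quinone reductase, had a log2 difference of -1.83 ± 0.91 (SE; limma adjusted p = 0.503).

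Malat1, a nuclear long non-coding RNA, was higher in the mutant tumours on all 7 of its probe sets. Its brightest probe set read 13.26, 13.29, 13.44, 12.63 and 12.96 against 12.22, 12.54 and 12.33, without overlap (log2 difference 0.75 ± 0.19, SE; limma adjusted p = 0.164). The antibiotic tumours were below the untreated WT tumours by 1.19 ± 0.18 (SE; limma adjusted p = 0.00821), whereas the mutant tumours differed from those by -0.43 ± 0.15 (limma adjusted p = 0.165). The 3' to 5' difference of the Gapdh control, a measure of RNA integrity, was 0.66 ± 0.24 (log2, SD, n = 5) in the mutant and 0.40 ± 0.13 (SD, n = 3) in the antibiotic tumours (two-sided exact permutation p = 0.179, adjusted p = 0.357 over 4 controls). The smallest p that 5 against 3 arrays allow is 0.0357. The beta-actin control differed by 0.21 (exact permutation p = 0.393, adjusted p = 0.393). The 5' probe sets of the transferrin receptor and pyruvate carboxylase controls fell to 1.86 and 3.11, under log2 4, so that these controls give no reading. The part of RNA integrity in the Malat1 values was not tested.

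No tumour marker or proliferation gene passed, although some were without overlap. Afp had a log2 difference of 2.03 ± 0.98 (SE; limma adjusted p = 0.491) that was -0.03 without antibiotic tumour 30. Gpc3, a fetal proteoglycan of liver cancer, read 7.82, 10.60, 10.64, 11.08 and 9.58 against 9.17, 8.78 and 10.84 (0.35 ± 1.04, SE; limma adjusted p = 0.937). Tff3, a trefoil peptide, read 12.00 to 13.40 in the mutant tumours and 12.84, 5.93 and 8.14 in the antibiotic tumours (3.73 ± 1.16, SE; limma adjusted p = 0.263), and without antibiotic tumour 28 it differed by 5.66 and passed (limma adjusted p = 0.0106). Antibiotic tumour 28 lay within the mutant range, so that this pass is no separate support. Akr1c18, a steroid dehydrogenase, read 11.44 to 12.26 against 11.07, 10.77 and 2.90, without overlap (3.63 ± 1.23, SE; limma adjusted p = 0.31), and differed by 0.96 without antibiotic tumour 30. The antibiotic tumours were thus unlike one another for Afp, Tff3 and Akr1c18. Mki67, the proliferation marker, read 4.37, 6.57, 7.84, 6.97 and 6.42 against 4.27, 4.78 and 4.89, so that mutant tumour 23 lay within the antibiotic range (1.79 ± 0.73, SE; limma adjusted p = 0.406). Ccna2, cyclin A, read 4.22 to 5.62 against 3.26 to 3.85, all at background, and was at least 2.06-fold higher without passing (limma adjusted p = 0.293). Of 31 cell cycle genes 20 were higher in the mutant tumours (median log2 difference 0.49), where 50.5% of all genes were higher. Of the 31, 0 passed by limma and 7 had an unadjusted p under 0.05 (10.2% of all genes). In 10 of them every antibiotic array was at or under log2 4. The mean level of the list was -0.62, 0.42, 0.64, 0.22 and -0.21 in mutant tumours 23 to 27 and -0.52, -0.03 and -0.38 in the antibiotic tumours. Mutant tumour 23 was thus below every antibiotic tumour and mutant tumour 27 within their range.

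Markers of stellate cells and fibroblasts varied more among the antibiotic than among the mutant tumours. Of 25 stellate cell and fibroblast markers 23 were lower in the mutant tumours, and 0 passed by limma (4 at an unadjusted p under 0.05). Their median log2 difference was -0.74, and it was -0.11 without antibiotic tumour 29 and -1.01 without antibiotic tumour 28. Their mean level was -0.38 to 0.24 in the mutant tumours and -0.36, 1.34 and 0.69 in antibiotic tumours 28, 29 and 30. Mgp, matrix Gla protein, read 3.34, 4.93 and 8.27 in these antibiotic tumours and 2.37 to 4.40 in the mutant tumours (log2 difference -2.34 ± 0.79, SE; limma adjusted p = 0.31), and it passed without antibiotic tumour 28 (-3.43; limma adjusted p = 0.0482). That array lay within the mutant range for Mgp, so that this pass is no separate support. Col1a1, the fibrillar collagen of scars, was below the filter, at 2.19 to 2.87 against 2.24 to 3.73. Macrophage markers had a mean level of -1.41 in antibiotic tumour 28, 0.94 and 0.96 in tumours 29 and 30, and -0.84 to 1.20 in the mutant tumours, so that both groups spread widely. The part of these cell types in the other differences was not tested.

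**Figure D5:**
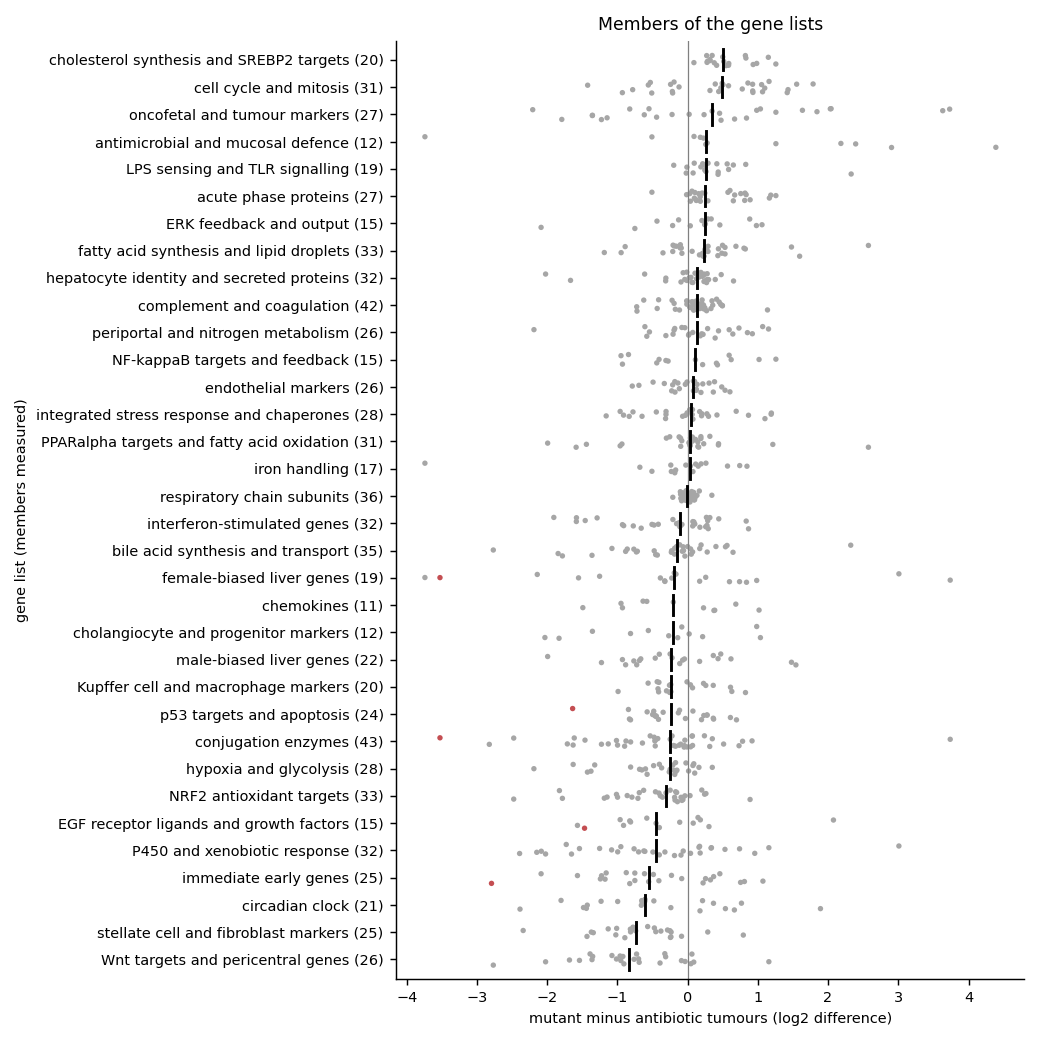
Log2 difference of mutant minus antibiotic tumours for the measured members of each list with at least 10 of them; red points passed a limma adjusted p of 0.05 and black bars are list medians. All 20 cholesterol synthesis genes lie to the right of 0 with a median of 0.51, and 23 of 25 stellate cell and fibroblast markers lie to the left with a median of -0.74 (-0.11 without antibiotic tumour 29).

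The genes that passed were also placed among their neighbours in the genome, by order of protein-coding genes in a table on mouse assembly GRCm38.p6. With the genes of the separate probe sets, 25 could be placed. Within 3 genes on either side they had 141 neighbours, of which 72 were measured. Called neighbours were Kdm5d, Eif2s3y and Uty, which lie side by side on the Y chromosome, and no other. Of the other 69, 9 had an unadjusted p under 0.05 (13%, against 10.2% of all genes) and 5 were without overlap (7.25%, against 5.71%). Hbegf was among these, with Cystm1 as its second neighbour, and the gene between them, Pfdn1, had a log2 difference of 0.00 (limma adjusted p = 0.997).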

How the data were processed

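RNA of dissected lesions and livers was labelled by 3' in vitro transcription and hybridised to single-colour arrays, per the labels' protocols. The deposited values are log2 signals, made by the authors with GCRMA per the submitters' processing notes; no version is given in the sources used here. Differences between signals near background may be noise, so folds of dim genes are uncertain. Probe sets over log2 4 on at least 3 of 18 arrays were kept, and named through the platform annotation. limma 3.58.1 in R 4.3.3 fitted 4 group means to all 18 arrays, and p-values were adjusted by Benjamini-Hochberg over 16663 probe sets; adjusted p under 0.05 was the threshold. "At least" folds set a group whose arrays were all at or under log2 4 to that limit. On simulated data the fit recovered 52% of 2-fold and 76% of 4-fold changes, with 6 false among 134 calls. The simulation drew independent values and gave each probe set the same spread in all 4 groups. It therefore does not measure false calls where the groups differ in spread. Genes were named by rule: 13 set genes, the 15 largest passing rises and falls without overlap, up to 4 passing members of each of 42 lists (otherwise the 2 largest differences), and up to 10 passing probe sets without a symbol. Pfdn1 and the second probe sets were named after their values were seen. The genes and lists were chosen with earlier results of these data known. Alternatives were other filters, array weights, fewer arrays and each array left out.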

Additional observations from a re-analysis of the deposited data

Results flagged for a closer look

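In 5 of 111 groups of 5 mutant tumours that were tested, 1 array lay far from the other 4 by Dixon's ratio (the gap to the nearest array over the whole range, limit 0.71). Chance flags about 1 in 20 groups. Mutant tumour 24 was the highest for Ereg (ratio 0.885) and for Gbp2 (0.885, at 6.41) and the lowest for Tbc1d20 (0.776, at 7.29). Mutant tumour 26 was the lowest for Gsta2 (0.749, at 4.65), and mutant tumour 23 the lowest for Apoa4 (0.879). Of these genes Tbc1d20 passed the comparison, also without mutant tumour 24, and Ereg was below the filter.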

How the results depend on the processing

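Against 35 probe sets and 21 genes, the limma fit of only the 8 compared arrays called 2 and 1, and an adjusted p under 0.01 left 17 and 12. Leaving out each array in turn gave 22 (without mutant tumour 25) to 117 probe sets (without antibiotic tumour 28) and 13 to 69 genes. Without untreated WT tumours 17 and 19, a setting chosen after seeing the data, 65 probe sets and 32 genes passed. The transferrin receptor control was -0.15 with middle to 5' probe sets, where 3' to 5' gave 0.14; its 5' probe set was at background. Some differences that had not passed changed sign when 1 array was left out. The range over the 8 such fits was -0.044 to 0.82 for Ly96, -0.027 to 3.25 for Afp, -0.035 to 1.88 for Apoa4, -0.030 to 2.35 for Serpina12, -0.036 to 1.21 for Zap70, -0.24 to 0.45 for Tfrc and -0.18 to 1.28 for Fabp4, each lowest without antibiotic tumour 30. It was -0.058 (without antibiotic tumour 29) to 0.97 for Gpc3, -1.70 to 0.25 (without 29) for Ccl5 and -0.28 (without 28) to 1.47 for Vsig4. With array weights Tfrc was -0.030. The cause was not tested. Over all genes named and alternatives run, 1862 values kept direction and side of the threshold, 79 lost the call, 5 gained it and 11 reversed. No paired analysis was possible because the groups compared share no replicate numbers. With 3 antibiotic arrays, 1 of them apart, the number of arrays limits the precision.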
